A study of Mus musculus with 56 samples.

Results

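Solute carriers are membrane proteins that move nutrients, ions, metals and metabolites across the plasma membrane and the membranes of mitochondria, lysosomes and the Golgi. Members were the genes whose symbol begins with Slc and a number and whose mean over 15 RNA-seq libraries was at least 4 on the regularized log2 scale of the deposited table. Of 380 such genes in a table of 24424, 216 reached that mean, 2 of these were set aside by the rule, and 214 are described. A further 164 lay below the mean, 31 of them at 0 in every library. Nearest inside the limit were Slc9b2 and Slc38a5, with means of 4.06 and 4.08, and nearest outside were Slc1a4 and Slc7a2, with means of 3.96 and 3.89. In 206 members the mean was at least 4 in all 4 groups. The other 8 (Slc6a12, Slc38a5, Slc9b2, Slc16a9, Slc18b1, Slc15a3, Slc45a3 and Slc52a3) reached it through their higher groups, so that some difference between groups was built into their choice.

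Libraries came from sorted bone marrow cells of C57BL/6 mice, multipotent progenitors (MPP) or the granulocyte-macrophage progenitors (GMP) that arise from them, and the mice were WT or Tet2-/-Flt3ITD (T2F3). In T2F3 mice the DNA demethylation enzyme Tet2 is missing and the cytokine receptor Flt3 carries an activating internal tandem duplication, and the effects of the 2 lesions cannot be told apart. MPP were sorted as lin- Sca+ cKit+ CD48+ CD150- cells and GMP as lin- Sca- cKit+ CD34+ CD16/32+ cells; ages, sexes and pooling of animals are not given in the sources used here. WT gave 4 MPP and 5 GMP libraries and T2F3 gave 3 of each, named below by group and the number in their labels (WT MPP 1, 3, 4 and 5).

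As background, what a cell takes up and where it stores it is set largely by these genes. Amino acid exchangers and glucose carriers feed growing progenitors, lactate carriers work with glycolysis, mitochondrial carriers link the matrix to the cytosol, and metal carriers supply haem synthesis in red cell precursors or strip metals from the phagosomes of macrophages. Lysosomal carriers return the products of digestion to the cytosol and are prominent in phagocytes and dendritic cells. Members were grouped by main substrate into 13 classes of carriers, and 4 members that are not carriers, such as the scaffold gene Slc9a3r1, were kept apart.

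Values are regularized log2 values, which shrink the differences of genes with few reads and are not scaled by gene length, so levels are compared between libraries and not between genes. The table holds no counts, and the depth of each library is unknown. WT GMP 1 and T2F3 GMP 2 stood apart: their 79 ribosomal protein genes lay 1.07 and 0.80 above the rest of their groups (median, log2), and the members lay 0.098 and 0.081 below. Markers of the GMP gate had a summed level (log2) of 16.05 to 16.45 in MPP and 17.53 to 18.32 in GMP, and no gate marker was at 0. WT GMP 1 and T2F3 GMP 2 had the lowest gate levels of their groups (18.09 and 17.53). They had the highest late neutrophil levels (17.38 and 18.62, against lowest libraries of 15.46 and 16.50) and eosinophil levels (13.40 and 12.90). The part of these cell markers in the results was not tested. Dendritic cell markers were higher in T2F3 (10 of 11 genes in each population), and erythroid markers were lower (10 of 11 in MPP and 9 of 11 in GMP), while Hbb-bs, Hbb-bt and Hba-a2 were listed at 0 throughout. In sorted bulk samples, fewer cells of a type and less RNA per cell cannot be told apart. The labels do not say that libraries of a group came from separate animals, so p-values measure only the spread between these libraries, which may be technical.

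Between genotypes, solute carriers were called about as often as other genes in MPP (39.3% against 40.3%) and somewhat more often in GMP (20.6% against 15.3%). In T2F3 MPP 34 members were higher and 50 lower at a limma adjusted p under 0.05, or 15.9% and 23.4%, where 20.7% and 19.6% of all 12133 tested genes were called. In GMP 27 were higher and 17 lower, or 12.6% and 7.94%, against 9.25% and 6.04% of all genes. The median difference, T2F3 minus WT, was -0.125 for members and -0.0153 for all genes in MPP, and -0.0435 and -0.0192 in GMP. Both contrasts called 18 members higher (6.67% of all genes) and 13 lower (3.72%), 2 were lower in MPP and higher in GMP (0.124% of all genes moved in opposite directions), and 119 were called in neither. Of the MPP calls 40.5% were higher, and 30.3% were so when each library was centred on its median. Without T2F3 MPP 2 the MPP counts were 21 higher and 25 lower, and without T2F3 MPP 3 there were 23 lower. In GMP falls outnumbered rises without T2F3 GMP 3 (17 higher, 19 lower), without WT GMP 1 (34 and 36) and with array weights (35 and 41). By group mean, 76 members (35.5%, against 29.9% of all genes) read highest in MPP of WT and 38 (17.8% against 24.1%) in MPP of T2F3, while 67 (31.3% against 27.3%) read highest in GMP of WT and 33 (15.4% against 18.7%) in GMP of T2F3.

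**Figure D1:**
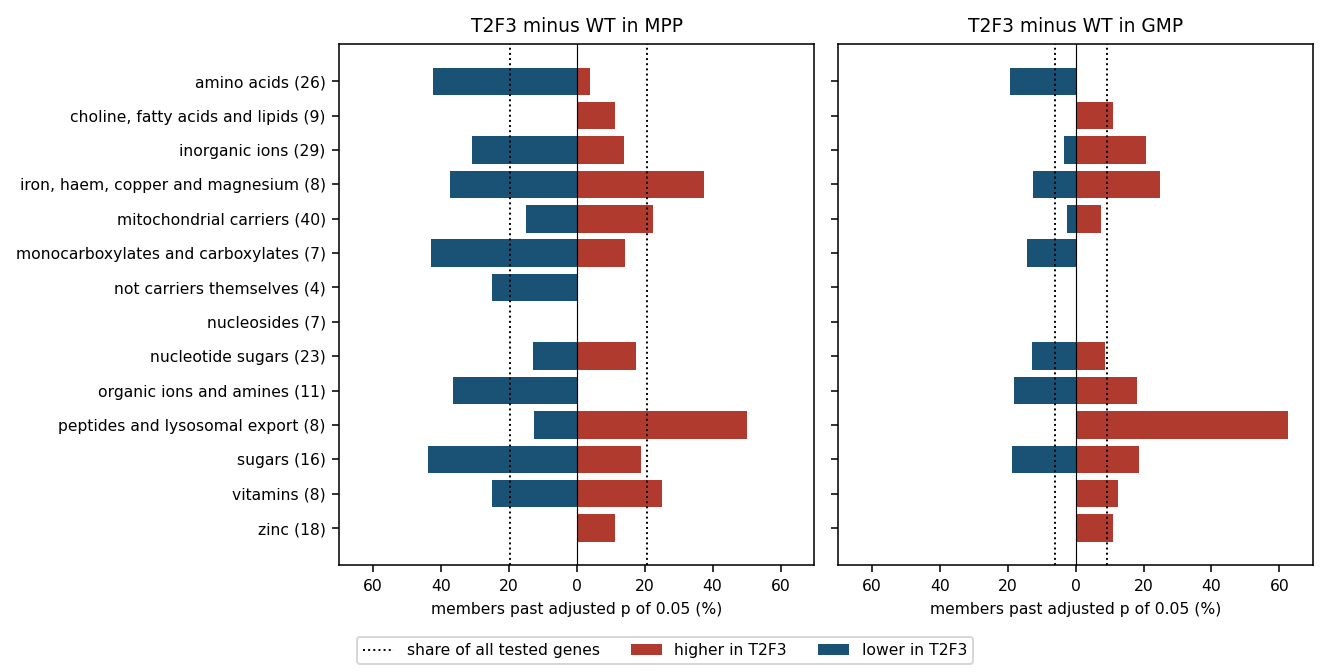
Percent of each substrate class past a limma adjusted p of 0.05, higher (right) or lower (left) in T2F3, in MPP and GMP, with the number of members in brackets and dotted lines at the shares of all 12133 tested genes. Amino acid carriers lie mostly on the lower side (11 of 26 in MPP), and carriers of peptides and lysosomal export on the higher side (5 of 8 in GMP).

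Counts are given by class, and differences between classes were not tested. Here and below, genotype counts of classes and lists are to be read beside the shares of all genes. These were 20.7% higher and 19.6% lower in MPP, and 9.25% and 6.04% in GMP. Amino acid carriers were 1 higher and 11 lower of 26 in MPP and 0 and 5 in GMP, while carriers of peptides and lysosomal export were 4 higher and 1 lower of 8 in MPP and 5 and 0 in GMP. Sugar carriers were 3 and 7 of 16 in MPP, and inorganic ion carriers 4 and 9 of 29. The nucleoside class had no call in either population among 7 genes, and zinc carriers were 2 higher and 0 lower of 18 in each. These counts moved with single libraries. Lower amino acid carriers were 5 without T2F3 MPP 2 or 3, 6 without WT MPP 3 and 7 without WT MPP 5 in MPP, and 3 without T2F3 GMP 2 and 9 without WT GMP 1 in GMP. Lower sugar carriers in MPP were 3 without T2F3 MPP 3 and 4 without T2F3 MPP 2, and lower inorganic ion carriers 4 without T2F3 MPP 3 and 5 without T2F3 MPP 2 or WT MPP 4. Higher peptide and lysosomal carriers in GMP were 2 without T2F3 GMP 2 or WT GMP 2 and 3 without T2F3 GMP 1, T2F3 MPP 2, WT GMP 3 or 5 or WT MPP 3 or 4, and 2 without both WT GMP 1 and T2F3 GMP 2. In MPP their higher count was 4 or 5 with any 1 library left out. Ribosomal protein genes were also higher in T2F3 MPP (61 of 79, and 1 lower). Their median level ran from 12.50 to 12.65 in WT MPP and from 13.25 to 13.29 in T2F3 MPP. In MPP a fit with this level as a covariate therefore cannot tell it apart from genotype, here and below. With the covariate 0 amino acid carriers were higher and 6 lower in MPP. The part of ribosomal protein genes in the falls was not tested.

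**Figure D2:**
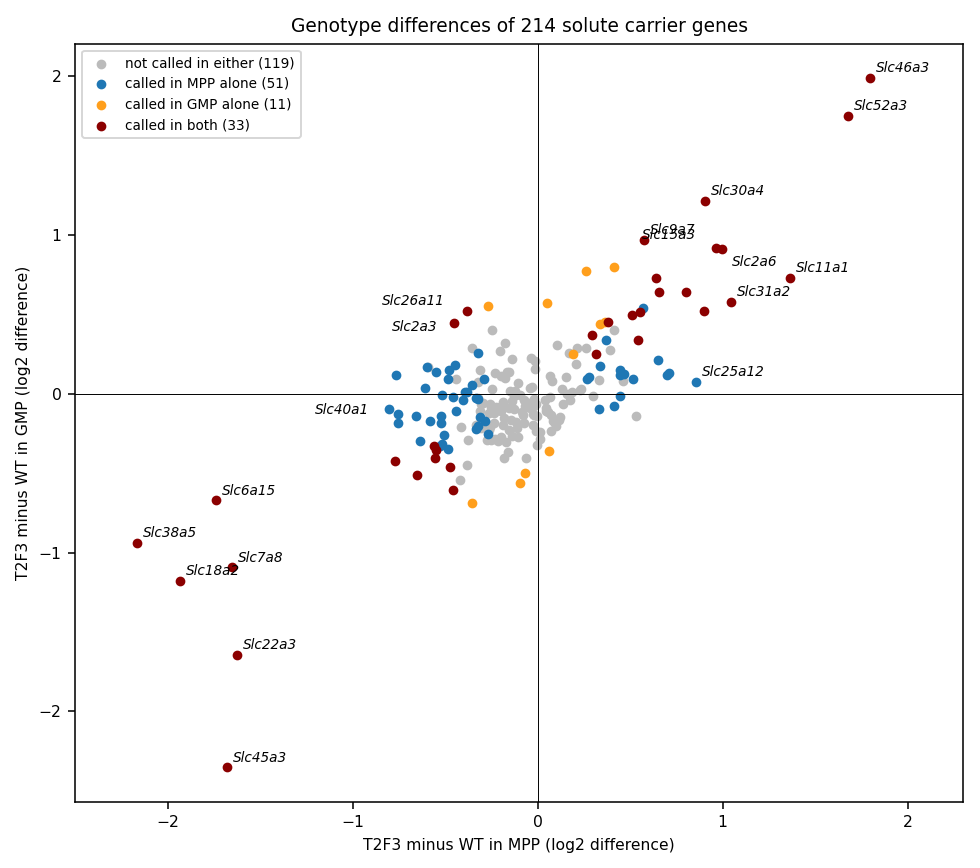
Each of 214 solute carrier genes by its difference T2F3 minus WT in MPP (horizontal) and in GMP (vertical), both in log2 units, coloured by where limma called it. Slc46a3 and Slc52a3 lie farthest to the upper right and Slc45a3, Slc22a3 and Slc18a2 to the lower left, and 33 genes are called in both populations.

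Lysosomal carriers held the largest rise of all members in both populations. Slc46a3, a carrier of the lysosomal membrane known for releasing the breakdown products of some antibody-drug conjugates, read 6.80, 7.24, 7.28 and 6.99 in WT MPP and 8.38, 9.26 and 8.99 in T2F3 MPP. GMP libraries read 6.14, 6.41, 6.52, 6.13 and 5.94 in WT and 7.88, 8.34 and 8.42 in T2F3. Every T2F3 library lay above every WT library of its population. The gene was 3.48-fold higher in MPP (1.80 ± 0.20 on the log2 scale, SE, limma adjusted p = 4.58e-06) and 3.96-fold higher in GMP (1.99 ± 0.19, adjusted p = 1.61e-06). Its RefSeq promoter, shown because this was the largest rise, holds neither motif searched among these promoters. It lies at chr5:147894766-147895065 (GRCm38.p6, reverse strand) and runs 5′ to 3′ from 250 bases before the annotated start, whose first base is the capital:
Slc46a3 promoter: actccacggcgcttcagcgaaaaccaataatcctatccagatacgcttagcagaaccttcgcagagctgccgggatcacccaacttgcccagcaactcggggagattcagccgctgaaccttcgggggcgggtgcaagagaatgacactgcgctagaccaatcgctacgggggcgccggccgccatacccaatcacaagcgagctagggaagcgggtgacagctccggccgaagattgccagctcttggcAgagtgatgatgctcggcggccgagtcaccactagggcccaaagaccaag

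Slc15a3, which carries histidine and small peptides such as bacterial muramyl dipeptide out of endolysosomes, read 4.24, 4.08, 4.44 and 4.39 in WT MPP and 4.82, 5.59 and 5.34 in T2F3 MPP. Its GMP values were 3.74, 4.27, 4.03, 4.08 and 3.85 in WT and 4.56, 4.995 and 5.17 in T2F3. The genotypes did not overlap in either population, and the differences were 0.96 ± 0.19 (SE, limma adjusted p = 0.00126) and 0.92 ± 0.18 (adjusted p = 0.00242). Slc15a3 had a mean just below 4 in WT GMP and reached the limit through its higher groups, so some difference was built into its choice. Slc66a1, an exporter of cationic amino acids from lysosomes, was 0.90 ± 0.16 higher in MPP (adjusted p = 0.000426). In GMP its 0.52 ± 0.15 (adjusted p = 0.0256) lost the call without any 1 of WT GMP 2 or T2F3 GMP 2 or 3 (0.45 to 0.50, adjusted p from 0.0557 to 0.123), and without both WT GMP 1 and T2F3 GMP 2 (0.43, adjusted p = 0.0932). It was lost too with quantile normalization (0.34, adjusted p = 0.175) and with array weights (0.33, adjusted p = 0.0761). Slc49a4, another lysosomal membrane protein, stood at 8.47 ± 0.01 (SD, n = 4) in WT MPP, 8.43 ± 0.12 (SD, n = 3) in T2F3 MPP, 9.28 ± 0.14 (SD, n = 5) in WT GMP and 9.31 ± 0.024 (SD, n = 3) in T2F3 GMP; it read higher in GMP than in MPP in both genotypes. Slc15a3 and Slc66a1 overlap other protein-coding genes (Tmem132a and Akr7a5), and whether strand was used in counting is not given in the sources used here.

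Markers of antigen-presenting cells moved with these carriers. The log2 of the summed linear values of 11 dendritic cell markers ran from 12.47 to 13.41 in WT MPP and from 15.31 to 16.18 in T2F3 MPP, and from 11.82 to 12.15 in WT GMP and 14.90 to 15.11 in T2F3 GMP. Of these markers 10 were higher and 0 lower in each population, and of 9 tested monocyte and macrophage markers 7 were higher in MPP and 6 in GMP; none of either list was at 0. Their part in the rise of the carriers was not tested. A list of carriers known from macrophages and dendritic cells had 6 of 14 tested members higher and 3 lower in T2F3 MPP, with a median of 0.077, and 6 higher and 1 lower in GMP, with a median of 0.236, and 4 of them were called higher in GMP without T2F3 GMP 2. Of all genes 20.7% were higher and 19.6% lower in MPP, and 9.25% and 6.04% in GMP.

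Carriers of iron, haem, copper and magnesium numbered 8, of which 3 higher and 3 lower were called in MPP and 2 higher and 1 lower in GMP, where the higher count was 1 without T2F3 GMP 2. Slc11a1, which pumps iron and manganese out of macrophage phagosomes and is known for resistance to intracellular microbes, read 4.61, 4.20, 4.64 and 4.51 in WT MPP and 5.67, 5.80 and 6.09 in T2F3 MPP. In GMP the values were 4.62, 4.64, 4.58, 4.61 and 4.40 in WT and 4.96, 5.39 and 5.57 in T2F3. T2F3 lay above WT in all libraries of both populations, with differences of 1.37 ± 0.16 (SE, limma adjusted p = 8.22e-06) and 0.73 ± 0.15 (adjusted p = 0.00327). Its relative Slc11a2, which moves ferrous iron out of endosomes in red cell precursors, fell by 0.47 in MPP (adjusted p = 0.00164) and by 0.46 in GMP (adjusted p = 0.0026).

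Slc40a1, ferroportin, is the iron exporter of the cell. It read 7.95, 7.94, 8.17 and 7.63 in WT MPP and 7.08, 7.37 and 6.91 in T2F3 MPP, a fall of 0.81 ± 0.18 (SE, limma adjusted p = 0.00288) with no overlap of the groups. In GMP it read 9.52, 9.07, 9.31, 9.65 and 8.88 in WT and 9.44, 9.21 and 8.93 in T2F3, and the genotypes overlapped (-0.094, adjusted p = 0.755); this small difference turned positive without T2F3 GMP 3 (0.037, adjusted p = 0.907). The difference between the genotype effects of 0.71 ± 0.25 (SE) had an adjusted p of 0.138. Slc31a2, a copper carrier of endosomes and lysosomes, rose by 1.05 ± 0.15 in MPP (adjusted p = 9.69e-05) and by 0.58 ± 0.15 in GMP (adjusted p = 0.0138), and the GMP call was lost without T2F3 GMP 2 (0.40, adjusted p = 0.106). The haem carrier Slc48a1, which returns haem from phagolysosomes to the cytosol, lay at 10.18 ± 0.082 (SD, n = 4) in WT MPP and 10.11 ± 0.067 (SD, n = 3) in T2F3 MPP, and at 10.58 ± 0.16 (SD, n = 5) and 10.39 ± 0.28 (SD, n = 3) in GMP. Slc48a1 overlaps another protein-coding gene, Hdac7.

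The mitochondrial carriers of haem synthesis were called in both populations, one lower and the other higher. Slc25a37, which imports iron into mitochondria, fell by 0.55 in MPP (limma adjusted p = 0.00118) and by 0.35 in GMP (adjusted p = 0.0285). Slc25a38, which brings in glycine for haem synthesis, rose by 0.54 in MPP (adjusted p = 0.00101) and 0.34 in GMP (adjusted p = 0.0296). Both GMP calls lay near the threshold and were lost in several fits, in which the differences kept their sign. That of Slc25a37 was lost without any 1 of WT GMP 3, 4 or 5 or T2F3 GMP 1 or 3 (-0.35 to -0.31, adjusted p from 0.0564 to 0.106), with quantile normalization and in a fit of the compared groups alone (-0.31 and -0.36, adjusted p = 0.0653 and 0.0525). That of Slc25a38 was lost without any 1 of WT GMP 3, 4 or 5 or T2F3 GMP 2 or 3 (0.28 to 0.36, adjusted p from 0.0529 to 0.147), without both WT GMP 1 and T2F3 GMP 2, with quantile normalization and in a fit of the compared groups alone (0.28 to 0.34, adjusted p from 0.0592 to 0.0767). Of 14 tested genes of iron and haem handling outside the family, 2 were higher and 2 lower in MPP, and 0 and 2 in GMP. Of all genes 20.7% were higher and 19.6% lower in MPP, and 9.25% and 6.04% in GMP. A list of 12 tested red cell carriers had 2 higher and 5 lower in MPP and 1 and 4 in GMP, the 1 being 0 without T2F3 GMP 2 or 3 or WT GMP 3, 4 or 5. The erythroid markers, at 11.50 to 11.57 in T2F3 MPP against 12.11 to 12.46 in WT MPP as a summed level, moved with the list, and their part was not tested.

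Amino acid carriers held the largest fall of any member in MPP. Slc38a5 imports glutamine, serine and other neutral amino acids in exchange for protons and is used by red cell precursors. It read 5.43, 5.32, 5.47 and 4.87 in WT MPP but 3.18, 3.13 and 3.005 in T2F3 MPP, a fall with no overlap (-2.17 ± 0.21, SE, limma adjusted p = 1.12e-06). GMP values were 4.20, 4.82, 4.32, 3.82 and 3.86 in WT and 3.11, 3.36 and 3.32 in T2F3 (-0.94 ± 0.20, adjusted p = 0.004), and the genotypes did not overlap in either population. At these low levels the GMP difference was -0.594 when a pseudocount of 8 was added. Slc38a5 reached the mean of 4 only through its WT groups, so some of its fall was built into its choice.

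Slc6a15, a sodium-coupled carrier of branched-chain amino acids and proline, read 6.72, 5.92, 6.14 and 6.61 in WT MPP and 4.79, 4.47 and 4.57 in T2F3 MPP (-1.74 ± 0.19, SE, limma adjusted p = 3.59e-06). In GMP its values were 4.93, 4.66, 4.40, 4.70 and 5.03 in WT and 4.07, 4.09 and 4.06 in T2F3 (-0.67 ± 0.18, adjusted p = 0.0176), a call lost without T2F3 GMP 2 (-0.68, adjusted p = 0.0517). WT MPP stood above the other 3 groups. Slc7a8, a light chain that forms an exchanger of neutral amino acids with the heavy chain encoded by Slc3a2, read 9.11, 8.97, 9.003 and 9.24 in WT MPP and 7.79, 7.01 and 7.49 in T2F3 MPP. GMP libraries read 7.64, 8.22, 8.21, 8.13 and 8.41 in WT and 7.22, 6.77 and 7.10 in T2F3. Within each population the genotypes did not overlap, and the differences were -1.65 ± 0.18 (SE, adjusted p = 4.59e-06) and -1.09 ± 0.17 (adjusted p = 0.000323).

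Smaller falls were seen in 2 facilitated carriers. Slc16a10, which lets aromatic amino acids leave the cell, fell by 0.77 in MPP (limma adjusted p = 0.000238) and by 0.43 in GMP (adjusted p = 0.0238). The GMP call was lost without any 1 of WT GMP 3 or 5 or T2F3 GMP 2 (-0.38 to -0.29, adjusted p from 0.0578 to 0.16) and in a fit of the compared groups alone (-0.43, adjusted p = 0.0848). Slc43a1, a facilitated carrier of large neutral amino acids, fell by 0.65 in MPP (adjusted p = 6.51e-05) and by 0.51 in GMP (adjusted p = 0.000723).

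Among Slc7a5, Slc3a2, Slc1a5, Slc38a2 and Slc7a11, which feed protein synthesis and redox balance in most growing cells, only Slc38a2 was called between genotypes. This does not hold for amino acid carriers at large. Of the 14 sodium-coupled or neutral ones, 0 were higher and 8 lower in MPP (57.1% lower, median -0.316). In GMP 0 were higher and 3 lower (21.4% lower, median -0.09). Of all genes 19.6% and 6.04% were lower. The leucine exchanger Slc7a5 differed by -0.42 ± 0.25 in MPP (SE, limma adjusted p = 0.174) and by -0.54 ± 0.23 in GMP (adjusted p = 0.132). The second passed without WT GMP 1 (-0.69, adjusted p = 0.026). Its heavy chain Slc3a2 differed by -0.17 ± 0.11 (adjusted p = 0.201) and -0.31 ± 0.10 (adjusted p = 0.0542). The second passed without WT GMP 1 (-0.37, adjusted p = 0.00795), without both WT GMP 1 and T2F3 GMP 2, with array weights and with the ribosomal covariate (-0.29 to -0.25, adjusted p from 0.0158 to 0.0395). The glutamine carrier Slc1a5 differed by -0.12 ± 0.082 (adjusted p = 0.259) and -0.18 ± 0.078 (adjusted p = 0.131), the second passing with array weights (-0.23, adjusted p = 0.019). Slc38a2, a sodium-coupled importer of small neutral amino acids, fell by 0.32 in MPP (adjusted p = 0.0412). This call was lost without any 1 of WT MPP 1, 3, 4 or 5, T2F3 MPP 2 or 3 or WT GMP 4 (-0.35 to -0.29, adjusted p from 0.0504 to 0.124), with no minimum mean (-0.32, adjusted p = 0.0558) and with the ribosomal covariate (-0.10, adjusted p = 0.406). A list of 7 tested carriers known as targets of the amino acid response factor ATF4 had 0 higher and 1 lower in MPP and none in GMP (median -0.172 and -0.202). The lower count in MPP was 0 without T2F3 MPP 2 or 3, WT GMP 4 or WT MPP 1, 3, 4 or 5, and that in GMP 2 without WT GMP 1.

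Slc7a11, the cystine importer that supports glutathione synthesis, read 10.91, 10.70, 10.62 and 10.73 in WT MPP and 10.72, 10.95 and 11.11 in T2F3 MPP, and 10.94, 11.16, 10.95, 10.96 and 10.99 in WT GMP and 11.14, 10.93 and 10.96 in T2F3 GMP. The genotypes overlapped in both populations, with differences of 0.19 ± 0.11 (SE, limma adjusted p = 0.165) and 0.012 ± 0.10 (adjusted p = 0.954). The MPP difference passed without T2F3 MPP 1 (0.29, adjusted p = 0.0464) and with array weights (0.27, adjusted p = 0.00604). The GMP value was negative without any 1 of WT GMP 1 or 3 or T2F3 GMP 1 (-0.055 to -0.001, adjusted p from 0.791 to 0.998). Its promoter is shown because Slc7a11 is a known target of the amino acid response. It lies at chr3:50443564-50443863 (RefSeq, GRCm38.p6, reverse strand), and the capitals mark 2 matches to TGATGNAA, read on both strands, at -66 and -47 relative to the start base, which do not overlap:
Slc7a11 promoter: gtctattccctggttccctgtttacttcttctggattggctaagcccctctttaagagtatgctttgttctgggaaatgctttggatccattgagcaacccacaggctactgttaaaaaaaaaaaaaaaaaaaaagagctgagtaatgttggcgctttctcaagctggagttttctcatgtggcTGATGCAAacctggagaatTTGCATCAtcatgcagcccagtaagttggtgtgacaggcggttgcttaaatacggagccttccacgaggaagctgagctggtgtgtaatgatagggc
Of 220 RefSeq promoters of 164 members matched by symbol, 3.18% held this motif within 300 bases, against 3.97% of 32851 promoters in the table. Among 7 promoters of the ATF4 target list the Slc7a11 promoter was the 1 with a match (14.3%).

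Hexose carriers were 2 higher and 6 lower of 12 in MPP and 2 and 2 in GMP. Slc45a3, a proton-coupled sugar carrier with high levels in prostate and in basophils and mast cells, read 5.08, 5.68, 5.36 and 5.16 in WT MPP and 3.66, 3.61 and 3.65 in T2F3 MPP. GMP libraries read 6.06, 6.42, 5.91, 5.82 and 5.95 in WT and 3.67, 3.84 and 3.53 in T2F3. All T2F3 libraries lay more than a unit below all WT libraries, and the fall in GMP was the largest of any member there (-2.35 ± 0.15, SE, limma adjusted p = 6.15e-08; -1.68 ± 0.16 in MPP, adjusted p = 1.1e-06). Slc45a3 reached the mean of 4 only through its WT groups, so some of this difference was built into its choice. The first of its 2 RefSeq promoters, at chr1:131962665-131962964 (GRCm38.p6, forward strand), is shown with the first base of the annotated start as a capital:
Slc45a3 promoter: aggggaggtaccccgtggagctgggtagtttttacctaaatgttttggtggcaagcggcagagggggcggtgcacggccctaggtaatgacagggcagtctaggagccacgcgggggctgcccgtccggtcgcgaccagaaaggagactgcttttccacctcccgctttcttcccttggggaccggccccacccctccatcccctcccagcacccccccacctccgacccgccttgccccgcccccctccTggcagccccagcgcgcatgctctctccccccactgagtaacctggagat

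Slc2a6, a hexose carrier of lysosomal membranes that rises in activated macrophages, read 5.995, 6.27, 6.002 and 5.84 in WT MPP and 6.71, 7.33 and 7.04 in T2F3 MPP. In GMP the values were 6.36, 6.71, 6.38, 6.28 and 6.45 in WT and 7.13, 7.38 and 7.53 in T2F3. The genotypes did not overlap, and the gene was 2.00-fold higher in MPP (0.997 ± 0.15, SE, limma adjusted p = 0.000139) and 1.88-fold higher in GMP (0.91 ± 0.15, adjusted p = 0.000355). Slc37a3, of the sugar phosphate antiporter family, rose by 0.80 ± 0.14 (adjusted p = 0.000446) and 0.64 ± 0.13 (adjusted p = 0.00357). The basal glucose carrier Slc2a1 was 0.52 ± 0.12 higher in MPP (adjusted p = 0.00376) and differed by 0.091 ± 0.11 in GMP (adjusted p = 0.63), a value that turned negative without T2F3 GMP 1 (-0.026, adjusted p = 0.909).

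Of 7 monocarboxylate carriers 1 higher and 3 lower were called in MPP and 0 higher and 1 lower in GMP (0 to 1 higher and 1 to 4 lower in MPP, and 0 to 1 and 1 to 2 in GMP, with any 1 library left out). Lactate leaves cells through Slc16a1 and Slc16a3. Slc16a1 read 10.29, 10.48, 10.55, 10.40 and 10.80 in WT GMP and 10.22, 9.66 and 10.13 in T2F3 GMP, a fall of 0.50 ± 0.13 (SE, limma adjusted p = 0.0183) that was lost without T2F3 GMP 2 (-0.33, adjusted p = 0.134) and in a fit of the compared groups alone (-0.50, adjusted p = 0.0722). In MPP it did not pass (-0.069 ± 0.14, adjusted p = 0.707). Slc16a3 rose by 0.37 ± 0.13 in MPP (adjusted p = 0.034), a call lost without any 1 of WT MPP 1, 3, 4 or 5 or T2F3 MPP 2 or 3 (0.30 to 0.39, adjusted p from 0.0557 to 0.145), or with centring or quantile normalization (0.31 each, adjusted p = 0.0663 and 0.0711). In GMP Slc16a3 differed by 0.34 ± 0.12 (adjusted p = 0.0781) and passed without WT GMP 4 (0.43, adjusted p = 0.0155), with array weights and with the ribosomal covariate (0.40 and 0.39, adjusted p = 0.0181 and 0.0208). Of 13 tested genes of glucose and lactate metabolism, 3 were higher and 1 lower in MPP and 0 and 1 in GMP.

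Of 11 carriers of organic ions and amines, 0 higher and 4 lower were called in MPP and 2 higher and 2 lower in GMP (0 to 1 higher and 3 to 5 lower in MPP, and 0 to 2 and 2 in GMP, with any 1 library left out). The largest falls were in carriers of monoamines. Slc18a2, which loads histamine, serotonin and other monoamines into vesicles, read 9.81, 9.98, 9.99 and 10.19 in WT MPP and 8.70, 7.92 and 7.56 in T2F3 MPP. In GMP it read 8.92, 8.98, 8.59, 8.96 and 9.01 in WT and 7.69, 7.90 and 7.56 in T2F3. The genotypes did not overlap, and the gene was 3.82-fold lower in MPP (-1.93 ± 0.19, SE, limma adjusted p = 1.73e-06) and 2.26-fold lower in GMP (-1.18 ± 0.19, adjusted p = 0.000306). Its promoter is shown because it was the 1 promoter with a GATA motif among 10 promoters of the 13 members lower in both populations. It lies at chr19:59260628-59260927 (RefSeq, GRCm38.p6, forward strand), and the capitals mark a match to AGATAA, read on both strands, at -230 relative to the start base:
Slc18a2 promoter: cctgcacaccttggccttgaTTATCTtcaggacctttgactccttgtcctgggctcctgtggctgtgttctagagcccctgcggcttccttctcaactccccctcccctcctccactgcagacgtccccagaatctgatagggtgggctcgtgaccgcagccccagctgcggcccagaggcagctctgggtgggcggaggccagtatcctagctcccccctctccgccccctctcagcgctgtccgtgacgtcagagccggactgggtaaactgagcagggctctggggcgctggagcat
The same motif was present in 8.64% of the 220 member promoters and in 11.2% of all 32851, and a match describes letters only. Among 14 promoters of members higher in both populations 0 held the GATA motif and 1 the TGATGNAA motif.

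Slc22a3, a plasma membrane carrier of organic cations that takes up histamine and serotonin, read 9.96, 10.07, 9.73 and 9.80 in WT MPP and 8.18, 8.46 and 8.15 in T2F3 MPP. In GMP its values were 8.22, 8.57, 8.18, 8.24 and 8.38 in WT and 6.86, 6.70 and 6.47 in T2F3. The range of T2F3 MPP overlapped that of WT GMP, and T2F3 GMP lay below every other library. The genotype difference was -1.62 ± 0.12 (SE, limma adjusted p = 1.09e-07) in MPP and -1.64 ± 0.12 (adjusted p = 1.03e-07) in GMP. Slc18b1, a vesicular polyamine carrier, fell by 0.76 in MPP (adjusted p = 0.00104) and differed by -0.19 in GMP (adjusted p = 0.392). Slc18b1 reached the mean of 4 only through its MPP groups. Its GMP means were 3.815 in WT and 3.628 in T2F3, so the GMP difference was read at a low level. Of 7 tested basophil and mast cell markers 0 were higher and 6 lower in T2F3 MPP, and 0 and 7 in GMP. Their summed level ran from 11.17 to 11.31 in WT MPP and from 10.12 to 10.37 in T2F3 MPP, and from 12.59 to 13.21 and 10.81 to 11.48 in GMP. In WT these markers and Slc45a3 read higher in GMP than in MPP, while Slc18a2 and Slc22a3 read lower. None of the list was at 0. Megakaryocyte markers, with Gp6 at 0, also had lower summed levels in T2F3. In MPP they were 10.45 to 10.74 in WT and 9.18 to 10.12 in T2F3. In GMP they were 9.80 to 10.36 and 8.85 to 8.87. The part of either list in the falls of Slc45a3, Slc18a2 and Slc22a3 was not tested.

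**Figure D3:**
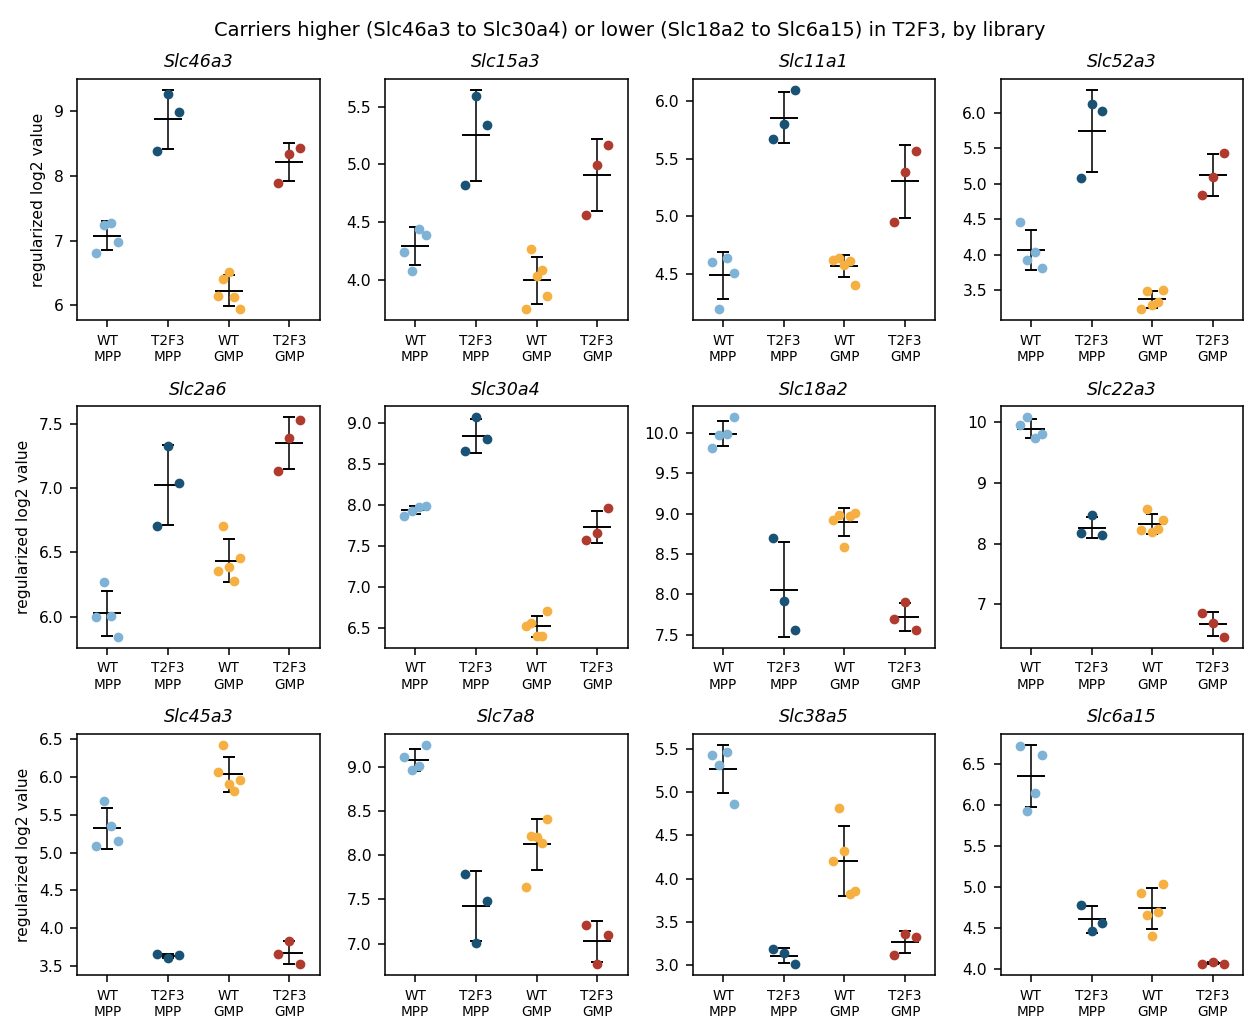
Regularized log2 value of 12 solute carrier genes in each of 15 libraries (points) by group, with the group mean (bar) and SD (whiskers); each panel has its own vertical range. In the first 6 genes the T2F3 libraries lie above the WT libraries of the same population, and in the last 6 they lie below them. Slc15a3, Slc52a3, Slc45a3 and Slc38a5 reached the mean of 4 through their higher groups.

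Of 8 vitamin carriers 2 higher and 2 lower were called in MPP and 1 higher and 0 lower in GMP (1 to 2 higher and 1 to 2 lower in MPP, and 1 and 0 to 2 in GMP, with any 1 library left out). Slc52a3, an importer of riboflavin, read 4.46, 3.93, 4.04 and 3.81 in WT MPP and 5.08, 6.13 and 6.02 in T2F3 MPP. GMP libraries read 3.23, 3.49, 3.30, 3.33 and 3.50 in WT and 4.84, 5.09 and 5.43 in T2F3. The genotypes did not overlap, and the gene was 3.20-fold higher in MPP (1.68 ± 0.23, SE, limma adjusted p = 3.69e-05) and 3.36-fold higher in GMP (1.75 ± 0.21, adjusted p = 2.26e-05). Slc52a3 had a mean below 4 in WT GMP and reached the limit through its higher groups, so some difference was built into its choice. The folate carrier Slc19a1 differed by -0.16 ± 0.14 in MPP (adjusted p = 0.372) and by -0.36 ± 0.13 in GMP (adjusted p = 0.077), and passed the threshold without WT GMP 1 (-0.42, adjusted p = 0.0228).

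The zinc class had 2 higher members in each population, and that count was 1 without T2F3 MPP 3 or WT MPP 4 in MPP and 1 without T2F3 GMP 1 or 3 in GMP. The lower count of 0 was 1 without T2F3 MPP 1 or WT MPP 3 in MPP and 2 without WT GMP 1 in GMP. Slc30a4, which fills vesicles and lysosomes with zinc, read 7.87, 7.92, 7.97 and 7.99 in WT MPP and 8.66, 9.06 and 8.80 in T2F3 MPP. In GMP it read 6.52, 6.56, 6.41, 6.40 and 6.70 in WT and 7.58, 7.66 and 7.96 in T2F3. Again no libraries of the 2 genotypes overlapped within a population, and the differences were 0.90 ± 0.12 (SE, limma adjusted p = 2.25e-05) and 1.21 ± 0.11 (adjusted p = 9.41e-07). The plasma membrane exporter Slc30a1 differed by -0.23 ± 0.12 and -0.085 ± 0.11 (adjusted p = 0.132 and 0.652). The importer Slc39a8 differed by -0.043 ± 0.091 and -0.092 ± 0.087 (adjusted p = 0.718 and 0.51), the first turning positive without T2F3 MPP 1 (0.004, adjusted p = 0.98). All 3 tested genes of the zinc buffering list (the metallothionein genes Mt1 and Mt2 and their regulator Mtf1) were lower in both populations, with medians of -0.797 and -0.53. Slc39a7, which releases zinc from the endoplasmic reticulum, stood at 9.99 ± 0.17 (SD, n = 4) in WT MPP, 10.002 ± 0.031 (SD, n = 3) in T2F3 MPP, 10.58 ± 0.20 (SD, n = 5) in WT GMP and 10.34 ± 0.20 (SD, n = 3) in T2F3 GMP.

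Sodium-proton exchangers were 2 higher and 2 lower of 7 in MPP (median -0.011) and 3 and 0 in GMP (median -0.03). Slc9a7, which swaps sodium or potassium for protons in the trans-Golgi network, read 6.21, 6.01, 6.43, 6.25 and 6.28 in WT GMP and 7.14, 6.98 and 7.49 in T2F3 GMP, with no overlap (0.97 ± 0.16, SE, limma adjusted p = 0.00044). In MPP it rose by 0.57 ± 0.17 (adjusted p = 0.0137), a call lost without T2F3 MPP 2 (0.45, adjusted p = 0.0815). Its endosomal relative Slc9a9 rose by 0.66 ± 0.12 (adjusted p = 0.000902) and 0.64 ± 0.12 (adjusted p = 0.00136). The sodium-calcium exchanger Slc8a1 rose by 0.77 ± 0.16 in GMP (adjusted p = 0.00303) and differed by 0.26 in MPP (adjusted p = 0.209). In MPP it was called with array weights (0.34, adjusted p = 0.0209) and with the ribosomal covariate (0.50, adjusted p = 0.0342). The anion exchanger Slc26a6 fell by 0.56 in GMP (adjusted p = 0.00674) and differed by -0.10 in MPP (adjusted p = 0.578). Slc9a7 overlaps another protein-coding gene, Chst7.

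Cation-chloride cotransporters help to set cell volume, and 4 of the 6 cation-chloride members fell and 1 rose in MPP, while 0 fell and 1 rose in GMP. Slc12a5 fell by 0.76 ± 0.22 in MPP (SE, limma adjusted p = 0.0125), a call lost without T2F3 MPP 3 (-0.60, adjusted p = 0.0756). In GMP it differed by 0.12 ± 0.21 (adjusted p = 0.741), a sign that turned without WT GMP 2 or T2F3 GMP 2 (-0.007 and -0.044, adjusted p = 0.987 and 0.942). The phosphate importer Slc20a1 differed by -0.20 ± 0.085 in MPP (adjusted p = 0.0626) and passed without WT MPP 3 or T2F3 MPP 1 (-0.26 and -0.25, adjusted p = 0.0339 and 0.0452) and in 5 other alternatives (-0.26 to -0.20, adjusted p from 0.00628 to 0.0469). It differed by -0.082 ± 0.081 in GMP (adjusted p = 0.534). Outside the family, 7 of 13 tested ion pumps and water channels were lower in MPP and 0 higher, and 5 were lower and 1 higher in GMP. Of all genes 19.6% were lower and 20.7% higher in MPP, and 6.04% and 9.25% in GMP.

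Nucleotide sugar carriers bring the building blocks of glycans into the endoplasmic reticulum and Golgi, and 4 of 23 were higher and 3 lower in MPP, against 2 and 3 in GMP. In MPP these were 17.4% and 13%, against 20.7% and 19.6% of all genes. In GMP they were 8.7% and 13%, against 9.25% and 6.04%. The higher count was 1 without T2F3 MPP 2, 2 without T2F3 MPP 3 or WT MPP 1 or 5 and 7 without WT GMP 1 in MPP and 0 without T2F3 GMP 2 and 4 without WT GMP 1 in GMP, and the lower count 5 without WT GMP 1 in MPP and 5 without T2F3 GMP 3 and 6 without WT GMP 1 in GMP. Slc35d1, a carrier of UDP-sugars used for proteoglycans, fell by 0.46 in MPP (limma adjusted p = 0.00713) and by 0.61 in GMP (adjusted p = 0.00126). The MPP call was lost with the ribosomal protein level as a covariate (-0.28, adjusted p = 0.0756). Slc35d3 fell by 0.69 in GMP (adjusted p = 0.017), a call lost without T2F3 GMP 1 (-0.63, adjusted p = 0.0647) and in a fit of the compared groups alone (-0.69, adjusted p = 0.0568). In MPP it differed by -0.35 (adjusted p = 0.142) and passed with the ribosomal covariate (-0.61, adjusted p = 0.0335). Slc35c2, of the GDP-fucose carrier family, stood at 10.07 ± 0.13 (SD, n = 4) in WT MPP, 10.14 ± 0.071 (SD, n = 3) in T2F3 MPP, 10.45 ± 0.19 (SD, n = 5) in WT GMP and 10.31 ± 0.14 (SD, n = 3) in T2F3 GMP.

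The mitochondrial carriers were the largest class, and 9 of 40 were higher and 6 lower in MPP, against 3 and 1 in GMP. In MPP these were 22.5% and 15%, near or below the 20.7% and 19.6% of all genes. In GMP they were 7.5% and 2.5%, below the 9.25% and 6.04% of all genes. In MPP the higher count was 4 without T2F3 MPP 2 and 5 without T2F3 MPP 3 or WT MPP 1, and the lower count 1 without T2F3 MPP 2 or 3 or WT MPP 1, 2 without WT MPP 5 and 3 without WT MPP 4. In GMP the higher count was 1 without T2F3 GMP 3 or WT GMP 3 or 5 and 6 without WT GMP 1, and the lower count 0 without T2F3 GMP 3 or WT GMP 3, 4 or 5 and 4 without WT GMP 1. Slc25a5, the main exchanger of ADP for ATP in dividing cells, read 12.04, 11.84, 11.99 and 11.99 in WT MPP and 12.12, 12.48 and 12.53 in T2F3 MPP. This rise of 0.41 ± 0.14 (SE, limma adjusted p = 0.0336) was lost without any 1 of WT MPP 1, 3, 4 or 5 or T2F3 MPP 2 or 3 (0.34 to 0.44, adjusted p from 0.0509 to 0.136). In GMP Slc25a5 differed by -0.08 ± 0.14 (adjusted p = 0.744), which turned positive without WT GMP 1 (0.009, adjusted p = 0.962). Ribosomal protein genes moved with the MPP rise of this gene, with 61 of 79 higher and 1 lower in T2F3 MPP, and with their level as a covariate its difference was 0.178 (adjusted p = 0.265). In MPP their level did not overlap between genotypes, so this fit cannot tell the covariate apart from genotype. The call was also lost with centring and quantile normalization (0.36 and 0.25, adjusted p = 0.0518 and 0.0597).

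Nucleoside carriers, the route of nucleosides and of nucleoside drugs such as cytarabine, had 0 of 7 members called at a limma adjusted p under 0.05 in either population. Their differences in MPP all lay below 0, from -0.304 to -0.025, with a median of -0.26. In GMP they ran from -0.295 to 0.128, with a median of -0.13. The medians of all genes were -0.0153 and -0.0192. The equilibrative carrier Slc29a1 differed by -0.025 ± 0.11 in MPP (SE, adjusted p = 0.872) and by -0.13 ± 0.11 in GMP (adjusted p = 0.449), the first turning positive without any 1 of WT MPP 1 or 5 or T2F3 MPP 2 (0.009 to 0.027, adjusted p from 0.885 to 0.961). Members lower in MPP were 1 without WT GMP 5 or WT MPP 5 and 2 without T2F3 MPP 1. The choline carrier Slc44a2 stood at 11.11 ± 0.068 (SD, n = 4) in WT MPP, 10.93 ± 0.077 (SD, n = 3) in T2F3 MPP, 11.02 ± 0.15 (SD, n = 5) in WT GMP and 11.12 ± 0.23 (SD, n = 3) in T2F3 GMP. Slc9a3r1, a scaffold protein and not a carrier, stood at 9.60 ± 0.10, 9.52 ± 0.16, 9.84 ± 0.20 and 9.70 ± 0.22 in the same order.

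The next comparison asked whether the genotype effect was the same size in both populations. By limma, 8 members (3.74%, against 2.26% of all tested genes) differed at an adjusted p under 0.05, the effect being more positive in GMP in 5 and more negative in 3 (1.38% and 0.882% of all). The first count was 0 without T2F3 GMP 3 or T2F3 MPP 2 or 3, 1 without WT MPP 3 or 4, 2 without WT MPP 1, 3 without T2F3 GMP 2 or WT GMP 4 or 5 and 9 without T2F3 MPP 1, and the second 1 without T2F3 GMP 3, T2F3 MPP 2 or 3 or WT MPP 3. Slc2a3, the high-affinity glucose carrier, read 9.31, 9.27, 9.15 and 9.02 in WT MPP and 8.91, 8.63 and 8.67 in T2F3 MPP. In GMP it read 8.28, 8.29, 8.04, 8.72 and 8.46 in WT and 8.84, 8.65 and 8.91 in T2F3. The genotypes did not overlap in MPP and overlapped in GMP. Slc2a3 was lower in T2F3 MPP (-0.45 ± 0.13, SE, adjusted p = 0.0158) and higher in T2F3 GMP (0.44 ± 0.13, adjusted p = 0.0273), with a difference of effects of 0.89 ± 0.18 (adjusted p = 0.0208). The MPP call was lost without T2F3 MPP 2 or 3 (-0.40 and -0.42, adjusted p = 0.0712 and 0.0633) and with the ribosomal covariate (-0.35, adjusted p = 0.0879). The GMP call was lost without any 1 of WT GMP 2 or 3 or T2F3 GMP 1 or 3 (0.36 to 0.43, adjusted p from 0.0577 to 0.0889) or in a fit of the compared groups alone (0.44, adjusted p = 0.0862). That of the difference was lost without any 1 of WT MPP 3, T2F3 MPP 2 or 3 or T2F3 GMP 3 (0.84 to 0.87, adjusted p from 0.0511 to 0.0792).

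Slc26a11, an anion carrier of lysosomes and the plasma membrane, was the other member with opposite calls. It read 7.12, 7.23, 7.14 and 6.80 in WT MPP and 6.90, 6.65 and 6.53 in T2F3 MPP, and 5.40, 5.15, 5.06, 5.12 and 4.92 in WT GMP and 5.49, 5.66 and 5.81 in T2F3 GMP. The genotypes overlapped in MPP and not in GMP. The differences were -0.38 ± 0.14 in MPP (SE, limma adjusted p = 0.0415), 0.52 ± 0.14 in GMP (adjusted p = 0.0149) and 0.90 ± 0.20 between them (adjusted p = 0.025). In MPP the call was lost without any 1 of WT MPP 1, 3 or 4, T2F3 MPP 2 or 3 or WT GMP 2 or 4 (-0.38 to -0.30, adjusted p from 0.0507 to 0.165) and with no minimum mean (-0.38, adjusted p = 0.055). In GMP it was lost without T2F3 GMP 3 (0.44, adjusted p = 0.0672). The call between them was lost without any 1 of WT MPP 1, 3 or 4, T2F3 MPP 2 or 3 or T2F3 GMP 3 (0.82 to 0.89, adjusted p from 0.0574 to 0.0952). The gene overlaps Sgsh, a sulphatase gene.

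Slc25a12, the mitochondrial aspartate-glutamate carrier of the malate-aspartate shuttle, gave the one difference of effects that was kept with each library left out in turn. It read 9.97, 9.89, 9.94 and 9.85 in WT MPP and 10.54, 10.86 and 10.91 in T2F3 MPP, and 10.50, 10.23, 10.39, 10.29 and 10.34 in WT GMP and 10.58, 10.27 and 10.43 in T2F3 GMP. T2F3 MPP had the highest mean, with its lowest library, at 10.54, below the highest of T2F3 GMP, at 10.58. The rise was 0.86 ± 0.10 in MPP (SE, limma adjusted p = 1.22e-05) and the difference 0.076 ± 0.10 in GMP (adjusted p = 0.644), which turned without T2F3 GMP 1 (-0.001, adjusted p = 0.997). The effects differed by -0.78 ± 0.14 (adjusted p = 0.0101).

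The other differences of effects lay near the threshold. Slc38a5 and Slc6a15, lower in both populations, fell less in GMP by 1.23 ± 0.29 (SE, limma adjusted p = 0.0384) and 1.07 ± 0.26 (adjusted p = 0.0438). Slc38a5 reached the mean of 4 only through its WT groups, so some of its fall was built into its choice. Its means were 5.27 in WT MPP and 4.20 in WT GMP, against 3.105 and 3.265 in T2F3. The part of these low T2F3 levels in the difference of effects was not tested. The Slc38a5 call was lost without any 1 of WT MPP 1, 3 or 4, T2F3 MPP 2 or 3, WT GMP 4 or 5 or T2F3 GMP 2 or 3 (1.13 to 1.24, adjusted p from 0.0579 to 0.12) and with quantile normalization (0.93, adjusted p = 0.0897). That of Slc6a15 was lost without any 1 of WT MPP 1, 4 or 5, T2F3 MPP 2 or 3, WT GMP 2, 3 or 4 or T2F3 GMP 1, 2 or 3 (0.94 to 1.14, adjusted p from 0.057 to 0.126).

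Slc33a1, which brings acetyl-CoA into the endoplasmic reticulum, read 8.32, 8.25, 8.48 and 8.27 in WT MPP, 8.86, 9.17 and 9.10 in T2F3 MPP, 9.08, 8.88, 8.92, 8.88 and 8.90 in WT GMP and 9.07, 9.07 and 9.04 in T2F3 GMP. Only WT MPP stood apart from the other groups, below them. It rose by 0.71 ± 0.089 in MPP (SE, limma adjusted p = 1.81e-05) and differed by 0.13 ± 0.085 in GMP (adjusted p = 0.316). Its difference of effects of -0.58 ± 0.12 (adjusted p = 0.0235) was lost without any 1 of WT MPP 3, T2F3 MPP 2 or 3 or T2F3 GMP 3 (-0.57 to -0.52, adjusted p from 0.0578 to 0.0857). Slc8b1, the sodium-calcium exchanger of the inner mitochondrial membrane, rose by 0.70 ± 0.11 in MPP (adjusted p = 0.000123) and differed by 0.12 ± 0.10 in GMP (adjusted p = 0.478). Its difference of -0.58 ± 0.15 (adjusted p = 0.0485) was lost without any 1 of WT MPP 1, 3, 4 or 5, T2F3 MPP 2 or 3, WT GMP 2, 3, 4 or 5 or T2F3 GMP 1, 2 or 3 (-0.61 to -0.49, adjusted p from 0.066 to 0.172), and in 4 other alternatives (-0.58 to -0.53, adjusted p from 0.0502 to 0.0708). Slc33a1 overlaps Gmps.

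**Figure D4:**
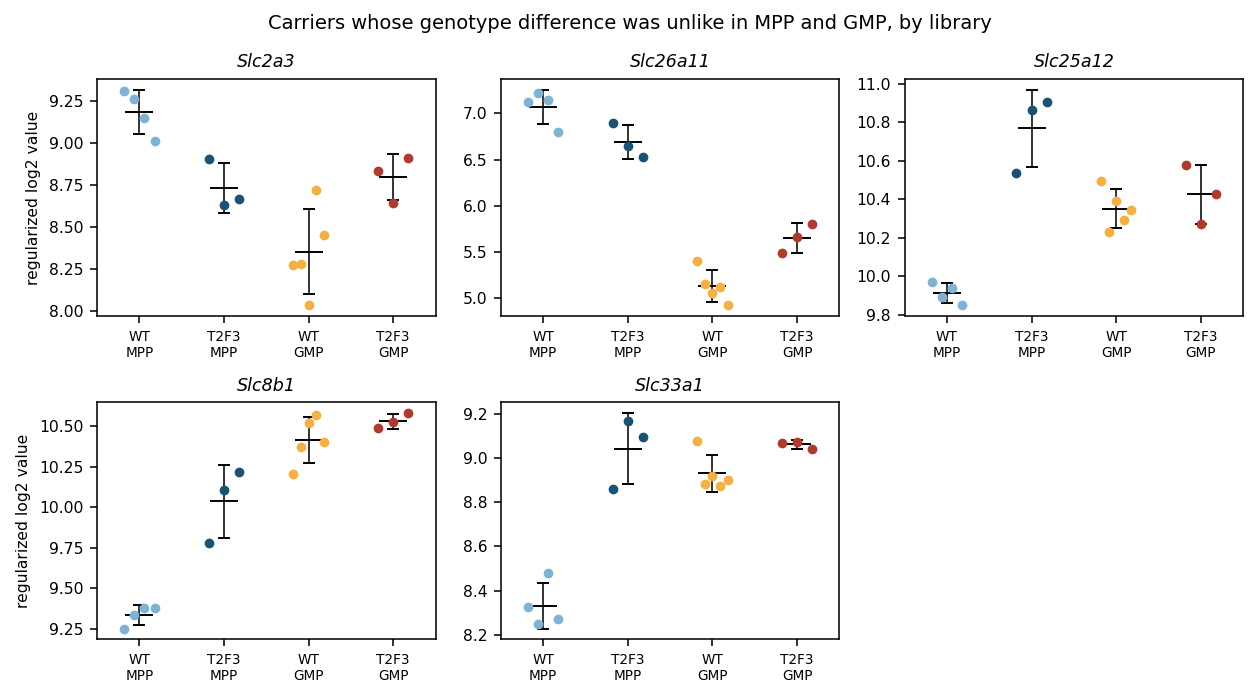
Regularized log2 value by library (points), with group mean (bar) and SD (whiskers), of 5 genes whose genotype difference was called unlike in MPP and GMP; each panel has its own vertical range. Slc2a3 and Slc26a11 are lower in T2F3 MPP and higher in T2F3 GMP, and the T2F3 MPP libraries of Slc25a12 lie above all WT libraries.

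Many carriers also differed between the populations, 54.2% in WT and 29% in T2F3, where 48.6% and 22.2% of all genes did. From MPP to GMP in WT, 57 members were higher and 59 lower (26.6% and 27.6%, against 25.4% and 23.2% of all genes), and in T2F3 28 and 34 (13.1% and 15.9%, against 10.5% and 11.7%). Whether the 2 steps differ in their number of calls was not tested, and they share no libraries. The WT step compares 4 with 5 libraries and the T2F3 step 3 with 3, so a difference of 1 size is called more readily in WT. In both steps 27 members were higher and 28 lower, and 1, Slc25a12, was higher in WT and lower in T2F3. Of the calls 49.1% in WT and 45.2% in T2F3 were higher, and 38.6% in WT after centring on the median and 57.6% in T2F3 after quantile normalization. Without T2F3 MPP 3, T2F3 GMP 1 or T2F3 GMP 2 the T2F3 step had 21, 22 and 21 lower, and without both WT GMP 1 and T2F3 GMP 2 it had 45 higher.

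Ferroportin, Slc40a1, gave the largest rise of the T2F3 step, from 7.12 ± 0.23 (SD, n = 3) in MPP to 9.19 ± 0.25 (SD, n = 3) in GMP (2.07 ± 0.19, SE, limma adjusted p = 7.13e-07), and rose by 1.36 ± 0.16 in WT (adjusted p = 2.67e-06). Slc22a4, an importer of the antioxidant ergothioneine, read 6.96, 6.69, 6.96 and 7.03 in WT MPP and 8.51, 8.11, 8.20, 8.23 and 8.09 in WT GMP. In T2F3 it read 6.73, 6.73 and 6.80 in MPP and 8.06, 8.30 and 8.06 in GMP. GMP lay above MPP in all libraries, by 1.32 ± 0.10 (SE, adjusted p = 2.99e-08) in WT and 1.39 ± 0.12 (adjusted p = 4.23e-07) in T2F3, and the genotypes differed by -0.16 in MPP and -0.09 in GMP (adjusted p = 0.276 and 0.618). The first passed with the ribosomal covariate (-0.35, adjusted p = 0.0174).

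Slc16a3, the lactate exporter of glycolytic cells, rose from MPP to GMP by 1.17 ± 0.12 in WT (SE, limma adjusted p = 5.28e-07) and by 1.14 ± 0.14 in T2F3 (adjusted p = 1.55e-05). Of 13 genes of glucose and lactate metabolism 10 were higher and 0 lower in the WT step, and 5 and 0 in the T2F3 step. Of all genes 25.4% were higher and 23.2% lower in the WT step, and 10.5% and 11.7% in the T2F3 step. Slc6a12, a carrier of betaine and GABA, read 3.78, 3.80, 3.82 and 3.73 in WT MPP and 5.37, 5.35, 5.20, 5.86 and 4.75 in WT GMP, and 4.59, 4.38 and 4.10 and 5.76, 6.19 and 5.59 in T2F3. No MPP library reached a GMP library of its genotype. The gene rose by 1.52 ± 0.18 in WT (adjusted p = 4.09e-06) and 1.49 ± 0.22 in T2F3 (adjusted p = 9.67e-05). Slc6a12 had a mean below 4 in WT MPP, so some of this rise was built into its choice. Slc36a2, a proton-coupled carrier of glycine and proline, rose by 1.14 ± 0.10 (adjusted p = 2.44e-07) and 1.36 ± 0.13 (adjusted p = 8.6e-07). The copper carrier Slc31a2 rose by 1.01 ± 0.14 in WT (adjusted p = 1.37e-05) and by 0.55 ± 0.17 in T2F3 (adjusted p = 0.0241), the second call being lost without any 1 of T2F3 MPP 1 or 3 or T2F3 GMP 2 (0.37 to 0.57, adjusted p from 0.0533 to 0.116) and in a fit of the compared groups alone (0.55, adjusted p = 0.0525). The mitochondrial exchanger Slc8b1 rose by 1.08 ± 0.093 in WT (adjusted p = 1.19e-07) and 0.49 ± 0.11 in T2F3 (adjusted p = 0.004).

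Concentrative nucleoside carriers also read higher in GMP. Slc28a2 read 10.25, 10.38, 10.62 and 10.41 in WT MPP and 11.21, 10.89, 11.18, 11.38 and 11.08 in WT GMP, and 10.49, 9.98 and 10.13 and 11.08, 10.70 and 10.77 in T2F3. Its copy Slc28a2b rose by 0.84 ± 0.12 in WT (SE, limma adjusted p = 3.34e-05) and 0.82 ± 0.15 in T2F3 (adjusted p = 0.000594). These genes are near-identical copies, so the split of reads between them is uncertain. Slc16a3 overlaps Csnk1d.

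From MPP to GMP in WT, 9 of 11 organic ion carriers were lower and 2 higher (81.8% and 18.2%). Of 29 inorganic ion carriers 14 were lower and 5 higher (48.3% and 17.2%). Of all genes 23.2% were lower and 25.4% higher, and differences between classes were not tested. Slc35f2, of the nucleotide sugar family without an agreed substrate, fell most in WT, reading 6.95, 6.42, 6.77 and 6.84 in WT MPP and 4.62, 4.75, 4.68, 4.61 and 4.77 in WT GMP (-2.06 ± 0.12, SE, limma adjusted p = 2.68e-09). In T2F3 it read 6.46, 6.15 and 6.56 and 4.88, 4.85 and 5.18 (-1.42 ± 0.15, adjusted p = 3.43e-06). The populations did not overlap in either genotype. Slc35d3 fell most in T2F3, by 1.96 (adjusted p = 2.73e-06), and by 1.63 in WT (adjusted p = 8.21e-07).

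Slc22a17, known as a receptor of the neutrophil protein lipocalin-2, read 6.65, 6.58, 6.55 and 6.83 in WT MPP and 5.29, 5.31, 4.91, 5.30 and 5.21 in WT GMP, and 6.73, 5.99 and 5.92 and 5.05, 5.67 and 5.17 in T2F3. The populations did not overlap, and the gene fell by 1.45 in WT (limma adjusted p = 2.62e-06) and 0.92 in T2F3 (adjusted p = 0.00309). Slc22a3 fell by 1.57 (adjusted p = 1.12e-08) and 1.59 (adjusted p = 2.59e-07), and Slc16a9, of the monocarboxylate family, by 1.81 (adjusted p = 1.1e-06) and 1.18 (adjusted p = 0.00126). Slc16a9 reached the mean of 4 only through its MPP groups, so some of its fall was built into its choice. Slc26a11 fell by 1.94 (adjusted p = 4.52e-09) and 1.04 (adjusted p = 7.25e-05). Slc30a4, the vesicular zinc carrier that rose with the T2F3 genotype, fell along the step by 1.42 (adjusted p = 1.61e-08) and 1.11 (adjusted p = 5.34e-06) and its T2F3 GMP values (7.58 to 7.96) overlapped those of WT MPP (7.87 to 7.99). Slc39a14, an importer of zinc and iron, fell by 1.12 (adjusted p = 7.45e-06) and 1.19 (adjusted p = 7.24e-05). Slc6a15 fell in WT by 1.60 (adjusted p = 7.68e-07); in T2F3 it differed by -0.54 (adjusted p = 0.0668), which passed without WT MPP 3 (-0.54, adjusted p = 0.0451) and with the ribosomal covariate (-0.54, adjusted p = 0.0403).

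**Figure D5:**
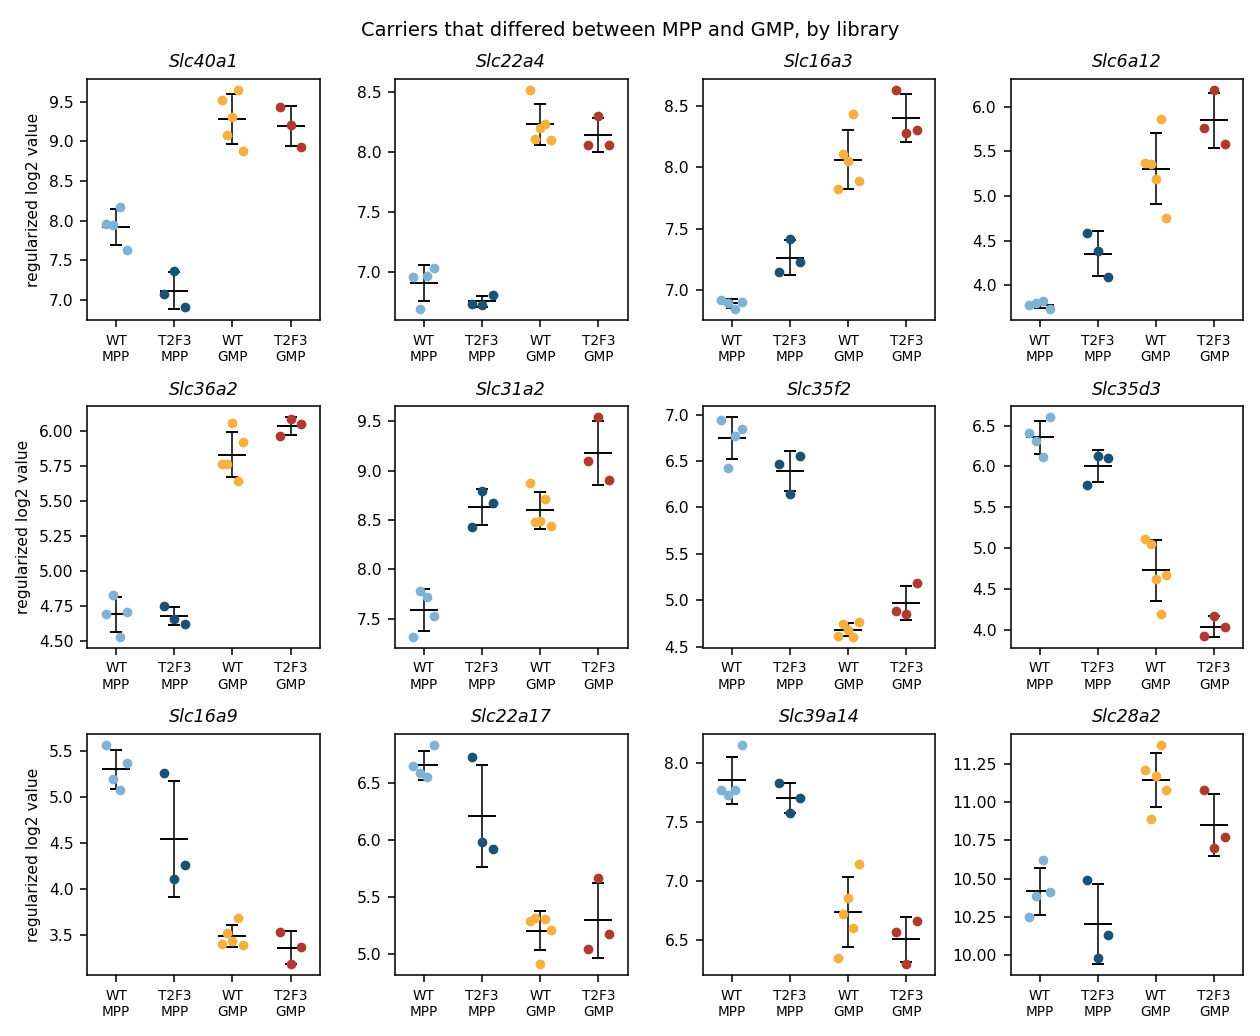
Regularized log2 value by library (points), with group mean (bar) and SD (whiskers), of 12 genes that differed between MPP and GMP or headed their class; each panel has its own vertical range. Slc40a1 to Slc31a2 and Slc28a2 read higher in GMP, and Slc35f2, Slc35d3, Slc16a9, Slc22a17 and Slc39a14 read lower, in both genotypes.

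Lists of genes that work beside the carriers are read against the shares of all genes, 20.7% higher and 19.6% lower in MPP and 9.25% and 6.04% in GMP. Of 11 tested partner genes of carriers, 3 higher and 2 lower were called in T2F3 MPP (27.3% and 18.2%) and 1 higher and 2 lower in GMP (9.09% and 18.2%; medians -0.036 and -0.058). Of 14 genes of amino acid sensing, 3 higher and 3 lower were called in MPP (21.4% each) and 1 higher and 1 lower in GMP (7.14% each; medians 0.209 and 0.083). Of 15 enzymes of nucleoside and folate metabolism, 3 higher and 1 lower were called in MPP (20% and 6.67%) and 2 higher and 3 lower in GMP (13.3% and 20%; medians 0.15 and -0.032). The other large family of membrane carriers, the ABC transporters, had 1 higher and 4 lower of 22 in MPP (4.55% and 18.2%) and 3 higher and 2 lower in GMP (13.6% and 9.09%; medians -0.195 and -0.01).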

How the data were processed

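RNA-seq was deposited for MPP and GMP of WT and T2F3 mice in 15 libraries, from RNA taken with a column kit and a stranded mRNA library kit, per the labels' protocols. The other 41 of the 56 samples in the series are not analysed here. The authors deposited 1 table of 24424 genes by Entrez identifier, in regularized log2 values from -3.82 to 19.64. STAR, Bowtie, HOMER, DESeq2 and the build mm9 are named without roles in the submitters' processing notes; how reads were counted and whether strand was used is not given in the sources used here. Such values are shrunken, which understates changes of genes with few reads, and carry no depth.

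Identifiers were matched to symbols (24345 of 24424). Genes with a mean of at least 4 (12133) were fitted in limma 3.58.1 (R 4.3.3) with 1 mean per group over all 15 libraries, trend and robust settings, and 5 contrasts: T2F3 minus WT in each population, the difference of these effects, and GMP minus MPP in each genotype. P-values are two-sided and adjusted by Benjamini-Hochberg over all genes tested, with a threshold of 0.05. Differences are given ± SE from this fit, and group levels as mean ± SD. Tables were made in Python 3.11.15 (NumPy 2.4.6, pandas 2.3.3) and figures in Matplotlib 3.10.9. On simulated data with 12133 genes the fit recovered 94% of 50 genes changed by 1 log2 unit in the MPP contrast, 88% in GMP and 82% of those in the difference of effects, and 56%, 42% and 22% at 0.5. False calls were 5.91%, 2.98% and 5.1% of the calls. The simulation had independent noise, few changed genes and no shift of whole libraries. These data differ, with 40.3% of genes called in MPP, so the rates may not carry over.

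The members, classes and gene lists were chosen with earlier results of these data known. Named genes were the 10 largest rises and falls of each genotype contrast past the threshold whose groups did not overlap, the 6 largest of each sign where effects differed, the 8 (WT) and 4 (T2F3) largest of each sign between populations, the member with the highest mean of each class, and a fixed list of 23 genes. The result of 1 member that this rule selects is not reported here. Alternatives were another minimum mean or none, an added pseudocount of 8, centring and quantile normalization, array weights, no trend or robust step, the compared groups alone, replicate blocks, a ribosomal protein covariate, and each library left out. No pair of libraries was identical. Same-numbered MPP and GMP libraries of a genotype deviated from their groups with correlations of 0.055 to 0.464, so the numbers were not taken to pair them. Promoters are RefSeq sequences on GRCm38.p6, from 250 bases before to 50 after the start, matched by symbol.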

Additional observations from a re-analysis of the deposited data

Results flagged for a closer look

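In 13 of 126 groups of 4 or 5 libraries checked over 63 named genes, 1 library stood apart from the rest of its group by Dixon's criterion, where chance alone marks about 1 in 20. WT GMP 5 was the lowest of its group with 4.402 for Slc11a1 (others 4.581 to 4.642) and 9.02 for Slc49a4 (others 9.324 to 9.356). WT GMP 3 was the lowest of its group with 8.585 for Slc18a2 (others 8.921 to 9.013) and 4.907 for Slc22a17 (others 5.207 to 5.311). WT GMP 1 was the highest of its group with 9.076 for Slc33a1 (others 8.875 to 8.921). WT MPP 5 was the highest of its group with 8.149 for Slc39a14 (others 7.726 to 7.767). WT GMP 1 was the lowest of its group with 10.77 for Slc44a2 (others 11.026 to 11.13), 10.297 for Slc48a1 (others 10.593 to 10.692), 10.113 for Slc35c2 (others 10.495 to 10.595) and 10.225 for Slc39a7 (others 10.627 to 10.726). WT GMP 2 was the highest of its group with 11.158 for Slc7a11 (others 10.942 to 10.988). WT GMP 2 was the lowest of its group with 10.201 for Slc25a37 (others 10.405 to 10.482). WT GMP 5 was the highest of its group with 7.457 for Slc39a8 (others 7.333 to 7.357). In 7 named genes the genotype difference itself differed between populations by the limma test of the difference. Its size, GMP minus MPP, was -0.78 for Slc25a12 (adjusted p = 0.0101; 0.86 in MPP and 0.08 in GMP), 1.228 for Slc38a5 (adjusted p = 0.0384; -2.17 in MPP and -0.94 in GMP), 1.068 for Slc6a15 (adjusted p = 0.0438; -1.74 in MPP and -0.67 in GMP), 0.901 for Slc26a11 (adjusted p = 0.025; -0.38 in MPP and 0.52 in GMP), 0.894 for Slc2a3 (adjusted p = 0.0208; -0.45 in MPP and 0.44 in GMP), -0.585 for Slc8b1 (adjusted p = 0.0485; 0.70 in MPP and 0.12 in GMP) and -0.579 for Slc33a1 (adjusted p = 0.0235; 0.71 in MPP and 0.13 in GMP). Apart from that of Slc25a12, each of these calls was lost on leaving out at least 1 library. Slc38a5 reached the mean of 4 only through its WT groups.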

How the results depend on the processing

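Of 139 results on named genes, 91 kept their direction and side of the threshold in every alternative run. With array weights the counts of members higher and lower became 55 and 77 in MPP, 41 lower in GMP, 19 and 10 for the difference of effects and 48 higher along the T2F3 step. With the ribosomal protein covariate the difference of effects had 11 higher and 10 lower and the T2F3 step 44 higher. Without both WT GMP 1 and T2F3 GMP 2 these were 9, 6 and 45. In MPP the ribosomal level did not overlap between genotypes, so MPP calls lost or gained with that covariate are no check of those calls. A minimum mean of 6 left 3 members with a more positive effect in GMP and 22 lower along the T2F3 step, and a fit of the compared groups alone left 20 lower along that step. With a replicate block by number the MPP counts were 21 higher and 27 lower, and a block by genotype and number (correlation 0.0988) changed 1 named call; the numbers were not taken to pair the libraries. The block by number lost the MPP calls of Slc35d1 (-0.34, adjusted p = 0.0674), Slc38a2 (-0.239, adjusted p = 0.183), Slc12a5, Slc2a3, Slc16a3 and Slc25a5, the GMP calls of Slc16a10, Slc26a11, Slc25a37 and Slc25a38 and the difference of effects of Slc33a1. It called Slc35d3 in MPP (-0.546, adjusted p = 0.0399) and Slc6a15 along the T2F3 step (-0.536, adjusted p = 0.027). Over single libraries left out, members higher and lower ranged from 21 to 40 and 23 to 56 in MPP, 17 to 34 and 12 to 36 in GMP, 0 to 9 and 1 to 4 for the difference of effects, 50 to 63 and 51 to 61 along the WT step, and 24 to 35 and 21 to 36 along the T2F3 step. Signs turned only for differences that were not called: 0.021 for Slc40a1 in GMP, -0.217 for Slc12a5 in GMP and 0.063 for Slc25a5 in GMP with array weights, -0.024 for Slc12a5 in GMP and 0.009 for Slc38a2 in GMP without both libraries, 0.010 for Slc38a2 in GMP, 0.048 for Slc16a1 in MPP, -0.023 for Slc7a11 in GMP, 0.028 for Slc29a1 in MPP and 0.003 for Slc39a8 in MPP with the replicate block, and 0.043 for Slc38a2 in GMP, 0.154 for Slc16a1 in MPP, 0.062 for Slc19a1 in MPP, 0.065 for Slc7a5 in MPP, 0.155 for Slc29a1 in MPP and 0.037 for Slc39a8 in MPP with the covariate. Over single libraries left out they spanned -0.001 to 0.153 for Slc25a12 in GMP, -0.216 to 0.037 for Slc40a1 in GMP, -0.044 to 0.338 for Slc12a5 in GMP, -0.096 to 0.069 for Slc38a2 in GMP, -0.141 to 0.009 for Slc25a5 in GMP, -0.026 to 0.199 for Slc2a1 in GMP, -0.055 to 0.052 for Slc7a11 in GMP, -0.091 to 0.027 for Slc29a1 in MPP and -0.105 to 0.004 for Slc39a8 in MPP. The cause of these moves was not tested. Depth is unknown, and 3 to 5 libraries a group limit the precision.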
